A study of Mus musculus with 8 samples.

Results

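The Speer genes, short for spermatogenesis associated glutamate-rich proteins, were followed in bulk RNA sequencing of adult mouse testis. The 8 members Speer2, Speer3, Speer4a, Speer4b, Speer4c, Speer4d, Speer4e and Speer4f were found by gene symbol among the 56748 rows of the deposited count table. Speer4f is listed there under its current symbol Speer4f1, matched through a RefSeq synonym. The groups were 4 libraries from Ssty2 knockout testis, with the genotype given as Ssty2-/-, and 4 from wild-type testis. The series title names the knockout as a deletion of repeated Ssty2 copies on the Y chromosome. The labels give no strain, age beyond adult, deleted interval or number of animals, and do not say whether the replicates came from separate animals. The p-values given here therefore rest on the variation among 4 libraries per genotype, part or all of which may be technical.

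Speer genes are a rodent family of related copies, most of them on mouse chromosome 5, that encode proteins rich in glutamate and are transcribed in germ cells of the testis. Their sequence is related to part of Dlg5, a scaffold gene with broad expression. Ssty2 is a multicopy gene on the long arm of the mouse Y chromosome that is transcribed in spermatids, the haploid cells after meiosis, and encodes a protein of the Spindlin family. Sly, another multicopy gene of that arm, is known in mice to restrain spermatid transcription of several multicopy families.

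The copies resemble each other closely enough that reads could be exchanged between them, which bears on every value of a single copy. Annotated transcripts of the 6 Speer4 members aligned pairwise at 88.5 to 98.5% identity, against 78.3 to 80.9% with Speer3 and 78.8 to 80.4% with Speer2. Sharing was also counted as stretches of 31 bases, called words here, that occur unaltered in transcripts of another annotated gene. Speer4c shared 94.7% of its words with other genes and kept 62 of 1164 for itself, the fewest of the 8 members. Speer2 shared 15.6%, the smallest share, and kept 983 of 1164. The other members shared 33.5% (Speer3), 49.2% (Speer4b), 66.4% (Speer4e), 67.8% (Speer4a), 69.6% (Speer4f) and 82.4% (Speer4d). How reads that map to several copies were counted is not given in the sources used here. Values of Speer4 copies are therefore uncertain individually, and sums over copies are given beside them. Sums do not recover reads that were left out of the counts.

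**Figure D1:**
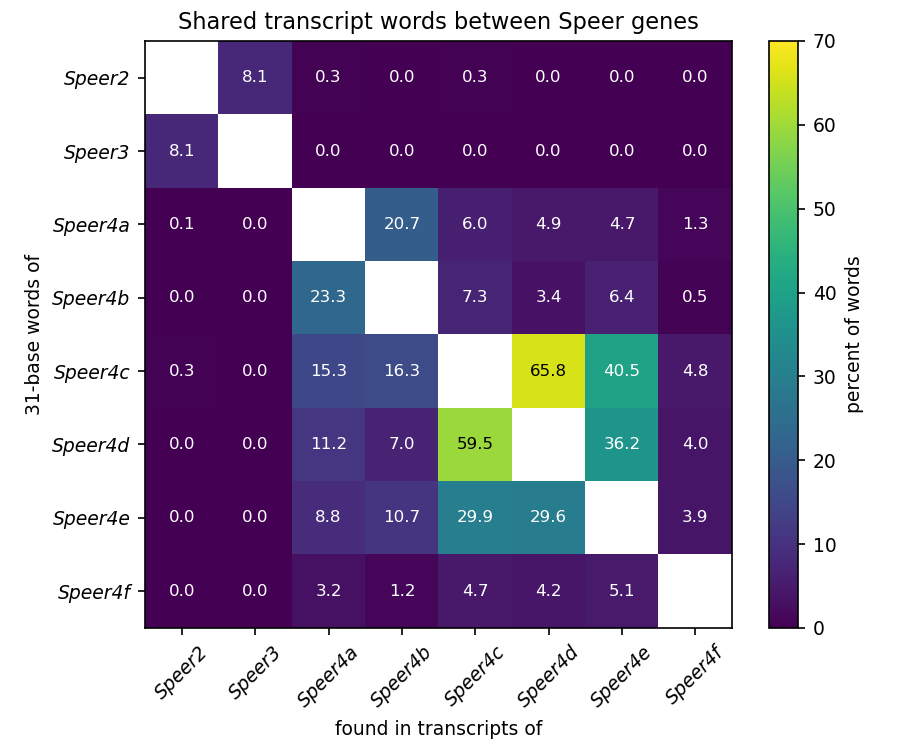
Percent of the 31-base words of each Speer gene (rows) that also occur in transcripts of each other Speer gene (columns), by annotated transcripts. Speer4c, Speer4d and Speer4e form a block with up to 65.8% shared words, Speer4a and Speer4b share 20.7 and 23.3%, and Speer2 and Speer3 share 8.1% with each other and at most 0.3% with any Speer4 gene.

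The map of shared words separates the members into a tight group of Speer4c, Speer4d and Speer4e, a looser pair of Speer4a and Speer4b, and Speer4f, whose closest gene is the non-member Speer4f2 (65.0% of its words). Speer2 and Speer3 stand apart from all of these. Their transcripts aligned at 90.6% identity but shared 8.1% of words.

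The promoters also set the Speer4 members together, but otherwise divide the family differently. The Speer3 promoter was nearer to those of all Speer4 members than to that of Speer2 (77.4% identity), unlike the transcripts. The Speer4b promoter was nearer to that of Speer4c (98.05%) than to that of Speer4a (95.96%). RefSeq promoters (build GRCm38.p6, 300 bases, from 250 before to 50 after the annotated start) of Speer4 members aligned pairwise at 90.6 to 98.7% identity, against 80.7 to 84.2% with Speer3 and 71.5 to 75.7% with Speer2. Speer2 lies on chromosome 16 and the other 7 members on chromosome 5. Speer4e and Speer4f are shown as the Speer4 members with the largest and smallest fold change, and Speer3 and Speer2 as the members outside that group. They lie at chr5:14938426-14938725 (Speer4e, minus strand), chr5:17475872-17476171 (Speer4f, plus strand), chr5:13791369-13791668 (Speer3, plus strand) and chr16:69863695-69863994 (Speer2, minus strand). Each reads 5′ to 3′ along the gene, and capitals mark TGATGTCA or its reverse complement TGACATCA.
Speer4e: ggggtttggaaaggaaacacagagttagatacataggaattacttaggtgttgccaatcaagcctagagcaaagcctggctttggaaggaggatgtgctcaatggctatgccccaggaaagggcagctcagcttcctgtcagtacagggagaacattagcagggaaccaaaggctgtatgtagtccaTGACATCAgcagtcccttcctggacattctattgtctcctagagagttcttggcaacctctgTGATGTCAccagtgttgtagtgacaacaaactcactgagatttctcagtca
Speer4f: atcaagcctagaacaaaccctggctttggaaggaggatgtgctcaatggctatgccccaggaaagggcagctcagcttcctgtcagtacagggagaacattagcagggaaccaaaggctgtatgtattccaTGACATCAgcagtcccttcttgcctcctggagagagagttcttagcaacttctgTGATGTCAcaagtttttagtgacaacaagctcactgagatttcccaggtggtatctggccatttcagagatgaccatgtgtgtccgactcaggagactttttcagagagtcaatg
Speer3: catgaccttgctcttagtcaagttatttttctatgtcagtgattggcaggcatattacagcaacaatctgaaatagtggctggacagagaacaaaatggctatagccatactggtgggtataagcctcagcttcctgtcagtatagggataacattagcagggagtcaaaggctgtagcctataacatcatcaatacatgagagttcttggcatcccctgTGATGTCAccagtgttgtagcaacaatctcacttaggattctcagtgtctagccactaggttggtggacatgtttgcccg
Speer2: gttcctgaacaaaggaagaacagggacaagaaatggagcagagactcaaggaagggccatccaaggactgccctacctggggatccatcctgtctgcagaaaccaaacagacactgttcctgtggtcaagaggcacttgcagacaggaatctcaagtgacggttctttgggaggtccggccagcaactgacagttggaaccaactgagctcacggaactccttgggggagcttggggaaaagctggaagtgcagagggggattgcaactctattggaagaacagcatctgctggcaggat

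TGATGTCA, searched on both strands, was present in promoters of 7 of 8 members and absent from that of Speer2. It was picked out by eye from these promoters after the fold changes were known, so its presence carries no test. Among all 27025 RefSeq mouse promoters of this length, 3.76% held it. Speer4a, Speer4d, Speer4e and Speer4f held it on both strands. In Speer4e the copy on the gene's own strand began 1 base before the annotated start and the other 63 bases before it. In Speer3 the single copy began 30 bases before the start. TGACGTCA, which differs from it in 1 base and is the palindromic cAMP response element, was in 0 of 8 member promoters and in 1.88% of all. TATAAA was in 0 of 8 (14.2% of all), CCAAT in 7 of 8 (37.9%) and GTTGCC in 5 of 8 (12.7%). A match describes letters in these windows and does not show that a factor binds there.

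The libraries held 18036708 to 22639737 counts in Ssty2 knockout testis and 18763650 to 24415587 in wild-type testis. Ssty2 itself had 0 counts in each of the 4 Ssty2 knockout libraries, against 56, 78, 83 and 45 in wild type, and was at least 77.0-fold lower when the knockout was set at 3 counts over the group (adjusted p = 5.80e-08 by the quasi-likelihood test of edgeR). Sly was also nearly absent, with 1 count summed over the Ssty2 knockout libraries and 796 over the wild-type libraries, while Ssty1 had 0 counts in all 8. Ssty2 and Sly counts were lost in the same libraries. Their parts in any change with genotype therefore cannot be told apart here. Of 21952 genes tested, 26.2% were called higher in Ssty2 knockout and 27.4% lower (adjusted p under 0.05), so a call in either direction was common.

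Cell type markers moved with genotype. With TMM scaling, a trimmed mean of log ratios that centres most genes near no change, 25 of 26 round spermatid markers rose in Ssty2 knockout and 0 fell, and their summed level was 7573 to 7753 CPM (counts relative to library size), against 5061 to 5612 CPM in wild type. All 15 elongating spermatid markers rose with TMM, against 6 of 15 when libraries were scaled to round spermatid markers, while 14 of 15 Sertoli cell markers fell and all 9 Leydig cell markers fell. In bulk tissue, a change in the number of cells of a type and a change in RNA per cell cannot be told apart. The Speer values are therefore given on 2 scales. The first is CPM with TMM scaling. The second scales each library to its summed round spermatid marker counts, under which the median log2 fold change of all tested genes was -0.50, against -0.01 with TMM. Whether spermatid content contributes to the Speer values was not tested beyond that comparison.

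With TMM, 7 of 8 members were higher in Ssty2 knockout testis and 0 were lower, beside backgrounds of 26.2 and 27.4% of all tested genes. Per round spermatid marker counts, 3 were called higher (Speer4a, Speer4d and Speer4e), 1 was lower (Speer2) and 4 were not called, beside backgrounds of 5.53% higher and 63.9% lower. All 8 members passed the filter on low counts, and their median log2 fold change with TMM was 0.77. In 6 of 8 members every Ssty2 knockout library lay above every wild-type library, as it did for 22.7% of all tested genes, and in 0 of 8 it lay below, as it did for 24% of all tested genes. Among tested genes of chromosome 5, which carries 7 of the members, 30% were called higher and 25.1% lower.

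**Figure D2:**
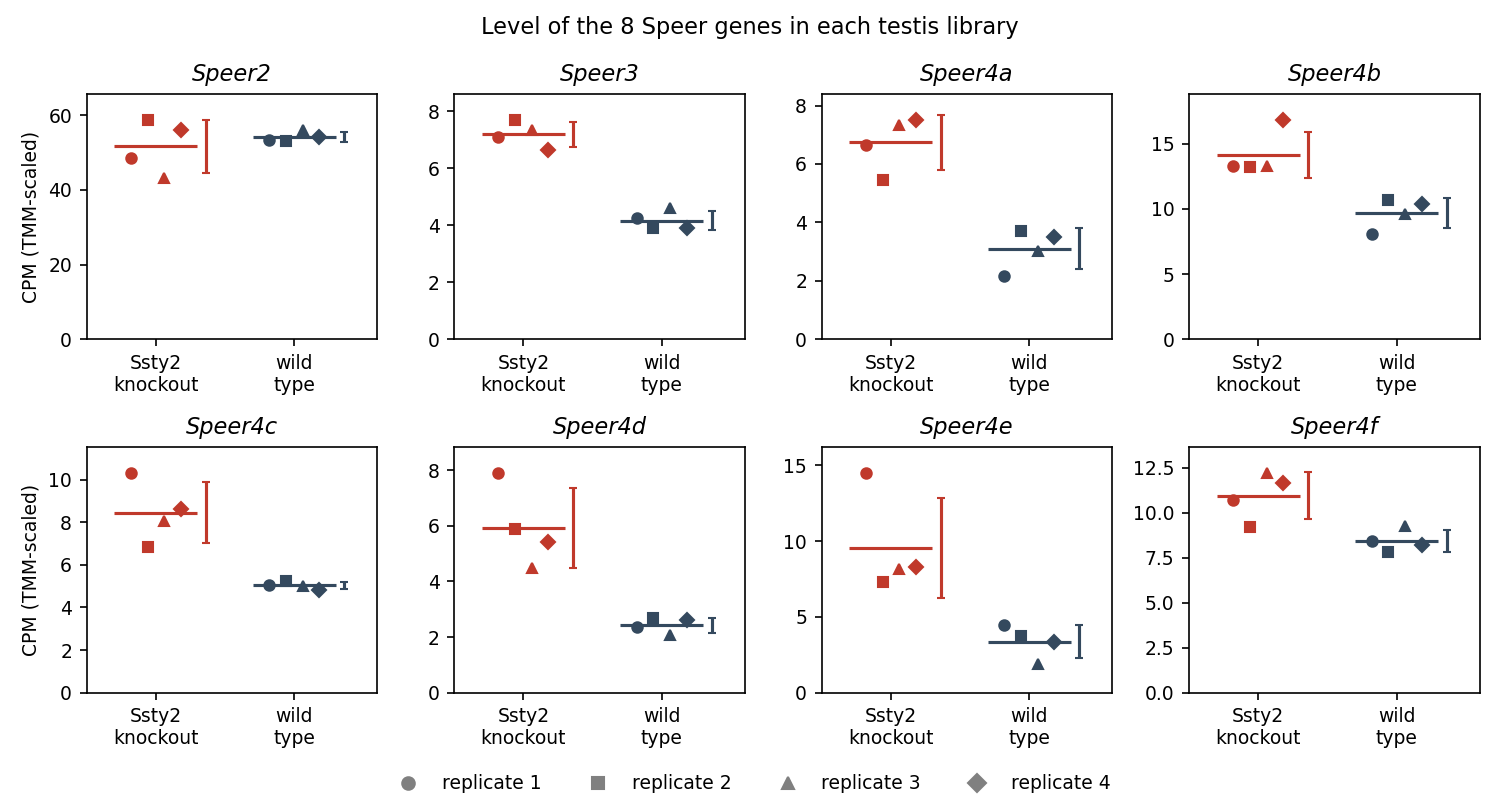
CPM with TMM scaling of the 8 Speer genes in 4 Ssty2 knockout libraries (left in each panel) and 4 wild-type libraries (right), with lines at group means, bars of ±1 SD, and a symbol for each replicate number; each panel has its own axis from 0. Groups do not overlap for Speer3 and Speer4a to Speer4e, and overlap for Speer2 and Speer4f; per spermatid marker counts, 3 of these 8 genes are called higher and 1 lower.

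Among the tight group of copies, Speer4e had 14.5, 7.28, 8.19 and 8.27 CPM in the 4 Ssty2 knockout libraries, against 4.48, 3.76, 1.91 and 3.32 CPM in wild type. The groups did not overlap, and the first knockout library stood well above the other 3. The log2 fold change of Speer4e was 1.52 (SE 0.238, adjusted p = 6.36e-05 by edgeR), the largest of the 8 members, and 1.02 per spermatid marker counts (adjusted p = 0.000711). Without knockout replicate 1 the TMM value was 1.25.

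Speer4d had 7.89, 5.87, 4.50 and 5.41 CPM in Ssty2 knockout, against 2.37, 2.67, 2.06 and 2.60 CPM in wild type. Again all knockout libraries were above all wild-type ones and replicate 1 was the highest. Its log2 fold change was 1.29 (SE 0.181, adjusted p = 2.18e-05 by edgeR), and 0.79 per spermatid marker counts (adjusted p = 0.000867).

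Speer4c, the copy with fewest words of its own, had 10.3, 6.85, 8.05 and 8.62 CPM in Ssty2 knockout, against 5.04, 5.25, 5.02 and 4.81 CPM in wild type. The wild-type libraries lay within a narrow band below every knockout library. With TMM its log2 fold change was 0.74 (SE 0.135, adjusted p = 0.000226 by edgeR), and per spermatid marker counts it was 0.25 and not called (adjusted p = 0.124). An annotated antisense gene, Speer4cos, overlaps Speer4c and had 30 counts over the knockout libraries and 11 over wild type, too few to be tested. Whether the counting used strand is not given in the sources used here, so reads of that pair cannot be told apart.

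Speer4a had 6.66, 5.45, 7.34 and 7.51 CPM in Ssty2 knockout, against 2.16, 3.72, 3.04 and 3.51 CPM in wild type. The lowest knockout library was above the highest wild-type library. Its log2 fold change was 1.11 (SE 0.170, adjusted p = 4.96e-05 by edgeR), and 0.61 per spermatid marker counts (adjusted p = 0.0051).

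Speer4b had 13.3, 13.2, 13.3 and 16.8 CPM in Ssty2 knockout, against 8.08, 10.7, 9.62 and 10.3 CPM in wild type. The groups were separate and knockout replicate 4 was the highest. With TMM the log2 fold change was 0.54 (SE 0.115, adjusted p = 0.000897 by edgeR), and per spermatid marker counts it was 0.05 and not called (adjusted p = 0.760).

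Speer4f had 10.7, 9.20, 12.2 and 11.6 CPM in Ssty2 knockout, against 8.44, 7.83, 9.27 and 8.22 CPM in wild type. Here the groups overlapped, since the lowest knockout library was just below the highest wild-type library. The log2 fold change was 0.37 with TMM (SE 0.113, adjusted p = 0.0108 by edgeR) and of the opposite sign, -0.11 and not called, per spermatid marker counts (adjusted p = 0.406). Scaling by library totals also ended the call, at 0.23 (adjusted p = 0.100).

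Speer3 had 7.09, 7.70, 7.34 and 6.64 CPM in Ssty2 knockout, against 4.27, 3.89, 4.60 and 3.89 CPM in wild type. The groups were separate, with a gap larger than the range of either. The log2 fold change was 0.79 with TMM (SE 0.125, adjusted p = 6.88e-05 by edgeR) and 0.30 per spermatid marker counts, where it was not called (adjusted p = 0.0542).

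Speer2 had 48.6, 58.7, 43.3 and 55.9 CPM in Ssty2 knockout, against 53.4, 53.0, 56.1 and 54.2 CPM in wild type. Knockout libraries lay on both sides of the wild-type ones, and the means of 51.6 ± 7.01 and 54.2 ± 1.38 CPM (SD, n = 4 each) differed by less than the knockout spread. Its log2 fold change was -0.07 with TMM (SE 0.0825, adjusted p = 0.496 by edgeR). Speer2 was called lower with library totals, at -0.21 (adjusted p = 0.0351), and per spermatid marker counts, at -0.56 (adjusted p = 1.30e-05), where the median of all tested genes was -0.50.

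**Figure D3:**
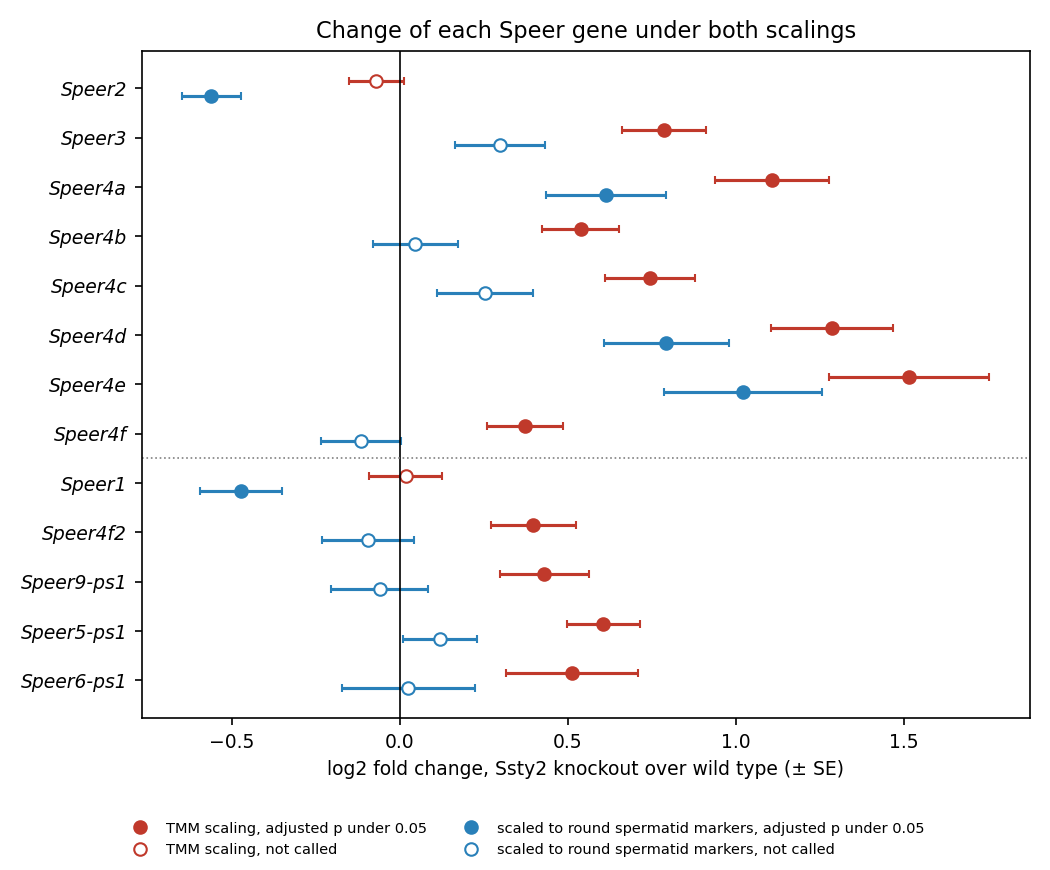
Log2 fold change of Ssty2 knockout over wild type with ±1 SE for the 8 Speer genes (above the dotted line) and 5 other genes named Speer, with TMM scaling (red) and per round spermatid marker counts (blue); filled points have an adjusted p under 0.05. With TMM, 7 of the 8 genes are called higher, against 3 per spermatid marker counts (Speer4a, Speer4d and Speer4e), where Speer4f changes sign without being called and Speer2 is called lower.

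The plot of fold changes shows that the change of scale moved every gene by about the same amount to the left. Differences between members are thus not affected by the scaling, and were examined as ratios within each library. For all 28 pairs of members the log2 ratio was compared between genotypes with an exact two-sided permutation test, whose smallest possible p with 4 against 4 libraries is 0.0286. That smallest value was reached by 14 pairs, among them 6 of the 7 pairs with Speer2, but the smallest p adjusted over the 28 pairs was 0.0571 and 0 pairs passed 0.05. At that floor a single pair could not pass by itself, however far apart its groups were. The lack of passing pairs thus does not show that members changed alike. The log2 ratio of Speer2 to Speer4e averaged 2.48 ± 0.549 in Ssty2 knockout and 4.07 ± 0.566 in wild type (SD, n = 4 each), the largest difference among the pairs, at -1.60. The ratio of Speer3 to Speer4c differed by 0.055, within the spread of either group.

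Speer2 made up 40.8, 51.4, 41.5 and 46.3% of the summed CPM of the 8 members in Ssty2 knockout libraries, against 60.5, 58.3, 61.2 and 59.6% in wild type. Every knockout share was below every wild-type share. The summed CPM of the 8 members was 119, 114, 104 and 121 in Ssty2 knockout and 88.2, 90.8, 91.6 and 90.9 in wild type, a ratio of 1.27 with TMM that became 0.901 per spermatid marker counts. The 7 members other than Speer2 summed to 62.9 ± 6.30 CPM in Ssty2 knockout and 36.2 ± 1.32 CPM in wild type (SD, n = 4 each), a ratio of 1.74, and of 1.23 per spermatid marker counts. On that second scale the libraries ranged over 7.25 to 9.14 per 1000 marker counts in Ssty2 knockout and 6.22 to 7.48 in wild type, so they overlapped.

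**Figure D4:**
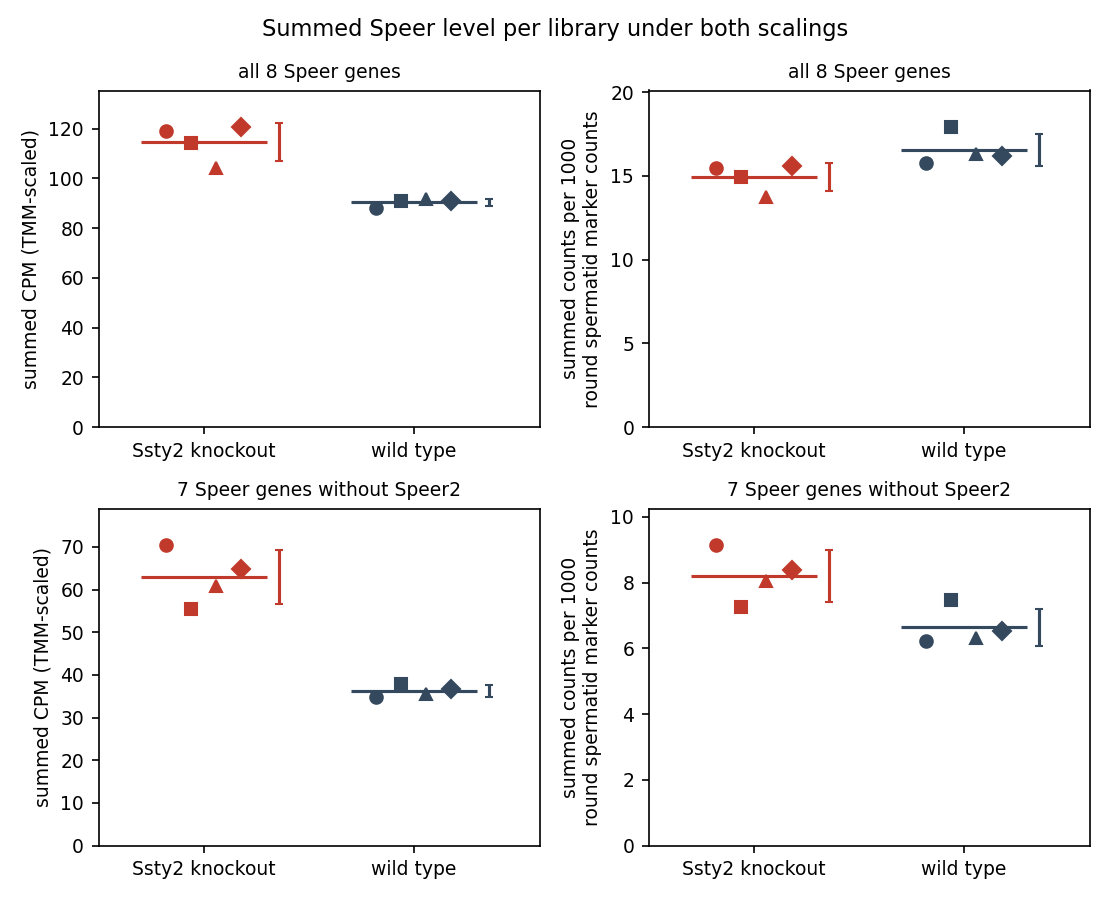
Summed level per library of all 8 Speer genes (top) and of the 7 genes other than Speer2 (bottom) in Ssty2 knockout (left in each panel) and wild type (right), as CPM with TMM scaling (left panels) or counts per 1000 round spermatid marker counts (right panels), with lines at means and bars of ±1 SD. The ratio of means for all 8 genes is 1.27 with TMM and turns to 0.901 per spermatid marker counts; for the 7 genes it is 1.74 and 1.23.

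Per kilobase of annotated exon, Speer2 was the most abundant member in both genotypes, at 44.3 ± 6.02 CPM per kb in Ssty2 knockout and 46.5 ± 1.19 in wild type (SD, n = 4 each), and its libraries overlapped with those of no other member. Next in Ssty2 knockout came Speer4f (8.72), Speer4c (7.08), Speer3 (6.03), Speer4e (5.96), Speer4b (5.33) and Speer4d (4.49), where libraries of each neighbouring pair in this order overlapped. Speer4a was lowest at 2.26 CPM per kb, below all libraries of Speer4d. In wild type the order was Speer4f (6.72), Speer4c (4.21), Speer4b (3.65), Speer3 (3.49), Speer4e (2.10), Speer4d (1.84) and Speer4a (1.04). Neighbours overlapped there for Speer4c and Speer4b, for Speer4b and Speer3, and for Speer4e and Speer4d. Exon lengths are from GENCODE vM21, and copies with shared words may owe part of their level to each other. If reads that map to several copies were left out, copies with few words of their own would read too low. Speer4c kept 62 of 1164 words and Speer2 983 of 1164. Whether the order follows these differences was not tested.

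Of 6 other genes named Speer, 5 could be tested, and with TMM 4 were higher and 0 lower, whereas per spermatid marker counts 0 were higher and 1 was lower. Speer1 had a promoter 93.1% identical to that of Speer2 that also lacked TGATGTCA. Given that likeness, its lack of the letters is not a case independent of Speer2. Speer1 had 9.45, 10.1, 10.6 and 8.73 CPM in Ssty2 knockout, against 10.9, 9.67, 9.46 and 8.46 CPM in wild type. Its groups overlapped fully, at a log2 fold change of 0.02 with TMM (adjusted p = 0.905 by edgeR) and -0.47 per spermatid marker counts. Speer4f2, the close copy of Speer4f, averaged 12.9 ± 0.893 CPM in Ssty2 knockout and 9.77 ± 1.93 CPM in wild type (SD, n = 4 each), a log2 fold change of 0.40 with TMM (adjusted p = 0.0139 by edgeR) and -0.09 per spermatid marker counts. The TMM call was lost without wild-type replicate 1 (adjusted p = 0.0506) or 4 (adjusted p = 0.0539). The pseudogenes Speer5-ps1, Speer9-ps1 and Speer6-ps1 had TMM log2 fold changes of 0.61, 0.43 and 0.51, all called, whereas per spermatid marker counts 0 of these 3 were called. The call of Speer6-ps1 (adjusted p = 0.0374 by edgeR) was lost with DESeq2 (adjusted p = 0.0648) and when replicate 1, 2 or 4 of the knockout, or 2 or 4 of the wild type, was left out (adjusted p = 0.0630 to 0.117). Dlg5, the gene to which the family is related, averaged 11.7 ± 0.938 CPM in Ssty2 knockout and 13.4 ± 1.45 CPM in wild type (SD, n = 4 each), and its log2 fold change of -0.20 was not called (adjusted p = 0.105 by edgeR), though it was called lower with library totals (-0.35) and per spermatid marker counts (-0.70).

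A further 42 annotated gene models shared at least 10% of their words with a member. With TMM, 22 of the 37 that could be tested were higher and 0 were lower, with a median log2 fold change of 0.67, against 14 higher and 4 lower per spermatid marker counts. Among all tested genes, 26.2% were higher and 27.4% lower with TMM, and 5.53% and 63.9% per spermatid marker counts. On chromosome 5, where these models lie, 30% were higher and 25.1% lower with TMM. The counts of calls differed with the member that the models most resembled. Of 21 tested models closest to a Speer4 member, 17 were higher with TMM (median 1.19), and 13 were higher and 1 lower per spermatid marker counts (median 0.70). Of 15 closest to Speer3, 5 were higher with TMM (median 0.35), a share near that of chromosome 5. Per spermatid marker counts 1 of them was higher and 3 were lower (median -0.13). The single tested model closest to Speer2 was at -0.10 and not called. By the highest mean count, Gm8857 had a log2 fold change of 0.56, Gm7361 of 0.61 and Gm6647 of 0.59, all called higher with TMM, whereas 4933402N22Rik at 0.06 and Gm21083 at -0.17 were not called. Per spermatid marker counts the first 3 were not called, at 0.069, 0.12 and 0.10 in the same order, and 4933402N22Rik (-0.43) and Gm21083 (-0.66) were called lower.

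**Figure D5:**
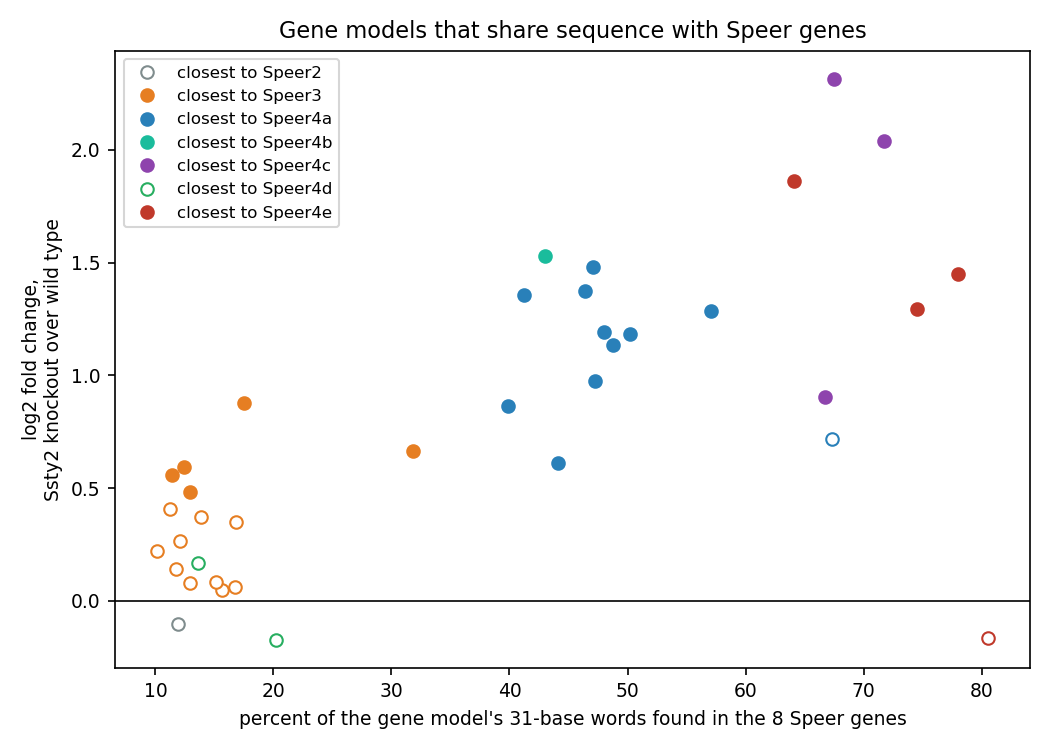
Log2 fold change of Ssty2 knockout over wild type with TMM scaling against the percent of words found in the 8 Speer genes, for 37 tested gene models, coloured by the closest Speer gene; filled points have an adjusted p under 0.05. With TMM, 22 models are called higher and 0 lower, against 14 and 4 per spermatid marker counts. Of all tested genes, 26.2% are higher and 27.4% lower with TMM, and 5.53% and 63.9% per spermatid marker counts. Models closest to Speer4 genes lie higher (median 1.19) than those closest to Speer3 (median 0.35 with TMM, -0.13 per spermatid marker counts).

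A pair of these models, chosen after their values were seen, show a pattern between libraries. Gm10354 had 27.5, 13.9, 14.5 and 11.9 CPM in Ssty2 knockout, against 5.97, 5.64, 3.51 and 1.39 CPM in wild type. Gm17019 had 20.9, 13.2, 14.2 and 8.96 CPM in Ssty2 knockout, against 3.65, 4.51, 2.80 and 0.481 CPM in wild type. In both, knockout replicate 1 was the highest library and wild-type replicate 4 the lowest. Knockout replicate 1 was also the highest knockout library for Speer4c, Speer4d and Speer4e and for 7 of 7 tested models closest to Speer4c or Speer4e, but for 3 of 12 models closest to Speer4a or Speer4b and 6 of 15 closest to Speer3. Models closest to Speer4c or Speer4e summed to 119, 63.9, 66.4 and 59.4 CPM in Ssty2 knockout, against 36.6, 36.7, 26.2 and 30.2 CPM in wild type. The ratio of means was 2.38, and 1.95 without knockout replicate 1. The sum of Speer4c, Speer4d and Speer4e had ratios of 2.21 and 1.94 with and without that library. These copies share words, so they are not independent of each other.

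Genes beside the members were mixed. The 3 nearest tested genes on each side of each member included 40 that are no members. With TMM, 14 of 17 neighbouring gene models that share words with the family were higher and 0 were lower, against 9 higher and 1 lower per spermatid marker counts. Of 22 neighbours below the limit of 10% shared words, 8 were higher and 4 lower with TMM, with a median log2 fold change of 0.18. Per spermatid marker counts 3 of these were higher and 11 lower, with a median of -0.31. Among all tested genes, 26.2% were higher and 27.4% lower with TMM, or 30% and 25.1% on chromosome 5. Per spermatid marker counts the shares of all tested genes were 5.53% and 63.9%, with a median of -0.50. Near Speer2, 4930428D20Rik rose to 29.2 ± 2.57 CPM in Ssty2 knockout, against 16.5 ± 1.16 CPM in wild type (SD, n = 4 each), while Speer2 itself was not called. Near Speer4b, Insig1, which restrains cholesterol synthesis, fell (log2 fold change -0.83), and Dpp6, a potassium channel partner, and 4930584F24Rik rose with TMM (0.93 and 0.54). Per spermatid marker counts Insig1 and Dpp6 were still called, in the same directions, and 4930584F24Rik was not (0.052, adjusted p = 0.570 by edgeR).

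Across all tested genes with a RefSeq promoter, the share of calls was compared between holders and non-holders of TGATGTCA, as a description without a test. With TMM, 53.8% of 493 genes holding it were called higher, against 24.4% of the others. Per spermatid marker counts, 22.5% were called higher, against 3.86% of the others, and 41.8% were called lower, against 72.1%. On chromosome 5, 78.3% of 46 genes with the letters were higher with TMM, against 26.8% without. These 46 include the 7 members from whose promoters the letters were picked, and the word-sharing gene models also lie on chromosome 5. The members were not removed from the shares over all genes or on chromosome 5, so those contrasts in part restate how the letters were chosen. The holders counted next, on other chromosomes, include no member. The shares were 85.7% of 42 and 35.1% on chromosome 14, and 76.2% of 21 and 28.3% on X. On chromosomes other than 5, 14 and X they were 46.1% of 384 and 23.6%. Of the other letters searched, GTTGCC also had a higher share with TMM, at 34.1% of its holders against 24.0% of the others. TATAAA stood at 29.4% against 25.1%. TGACGTCA had 26.8% against 25.4%, and CCAAT 25.7% against 25.3%. The spermatid markers, which rose with genotype with TMM, also held TGATGTCA in 4 of 23 round and 4 of 12 elongating spermatid marker promoters, beside 3.76% of all promoters, and the part of this in the shares was not tested. The holders include related copies, among them 21 of the 22 word-sharing gene models with a RefSeq promoter, so genes here are not independent.

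Other gene groups are given with TMM unless stated. The Btbd35f family, an X-linked multicopy family of spermatids, had 15 of 15 tested members higher on both scales, with median log2 fold changes of 1.97 with TMM and 1.48 per spermatid marker counts. The Speer medians were 0.77 and 0.28. Btbd35f29 had 10.9 ± 2.21 CPM in Ssty2 knockout and 2.46 ± 0.363 CPM in wild type (SD, n = 4 each). Among X-linked and autosomal genes linked to Ssty and Sly, Slxl1, an antagonist of Sly, rose (1.35), Spin1, a Spindlin chromatin reader, fell (-0.63), and 3 of 5 tested were not called, against 1 higher, 4 lower and 0 not called per spermatid marker counts. Of testis nuclear and glutamate-rich protein genes, 13 of 16 were higher and 3 lower (median 0.44), against 5 higher, 6 lower and a median of -0.05 per spermatid marker counts, with the protamine genes Prm1 and Prm2 at 0.65 and 0.70 and the glutamate-rich Erich6 at 0.66. Spermatocyte markers were split, with 4 higher and 6 lower of 16 (median -0.10), against 0 higher and 15 lower per spermatid marker counts, and spermatogonial markers were mostly lower, with 1 higher and 9 lower of 12 (median -0.69). Peritubular, macrophage and endothelial markers were lower in 5 of 6, 4 of 6 and 3 of 5 genes with TMM and in 5, 6 and 5 genes per spermatid marker counts, with 0 higher on either scale. No cell type marker was at 0 in all libraries.

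The named genes whose level over the 8 libraries most resembled the summed Speer level were Psmd10, a proteasome assembly chaperone (Pearson r = 0.992), Rfx6, a transcription factor (0.990), Zfp819 (0.985), Dchs1, a protocadherin (0.984), and Tex13c3 (0.982). The 8 libraries share the difference between genotypes, which sets much of each r, and no p is given. The TMM log2 fold changes of the 5 named genes were 0.44, 1.01, 0.43, 0.75 and 1.26 in that order, and those of Psmd10 and Zfp819 changed sign per spermatid marker counts, at -0.050 and -0.057.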

How the data were processed

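RNA was sequenced from adult testis, 4 libraries per genotype. Total RNA was isolated with TRIzol and treated with DNase, and libraries were made with a TruSeq RNA kit, per the labels' protocols. The authors deposited 1 table of raw counts per gene, made with FastQC, Trimmomatic, STAR, featureCounts and DESeq2 named in the submitters' processing notes, with the build mm39. Not given in the sources used here are versions, annotation, strand setting and how multi-mapping reads were handled. The last of these can move counts between Speer copies or leave them out.

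Counts were tested with edgeR 4.0.16 in R 4.3.3 (filterByExpr with a minimum count of 10 and a minimum total of 15, TMM, quasi-likelihood test, Benjamini-Hochberg adjustment over 21952 genes, called under 0.05). Alternatives were DESeq2 1.42.0, relative log expression factors, library totals, scaling to 26 round spermatid markers, no filter, a filter of 1 CPM in 4 libraries, a replicate block, and leaving out each library. Annotated words and exon lengths came from GENCODE vM21, and promoters from RefSeq (GRCm38.p6); no gene coordinates on mm39 are given. Of the 56748 rows of the table, 52073 had a symbol and 14839 held 0 counts throughout.

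Genes named in the text were the members, other genes named Speer, Dlg5, up to 5 word-sharing gene models by mean count, up to 4 genes per list or neighbourhood by smallest p, and the 5 nearest in pattern; exceptions are stated. The members and lists were chosen with earlier results of these data known. The marker lists cover round and elongating spermatids, spermatocytes, spermatogonia, Sertoli, Leydig, peritubular, macrophage and endothelial cells. Intervals and limits from counts cover counting error only.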

Additional observations from a re-analysis of the deposited data

Results flagged for a closer look

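In the 4 Ssty2 knockout libraries, Speer4b had 16.8 CPM in replicate 4, away from the next library at 13.3 CPM by 0.982 of the group's range. Speer4e had 14.5 CPM in Ssty2 knockout replicate 1, away from the next library at 8.27 CPM by 0.863 of the range. Both gaps pass Dixon's 95% limit for 4 samples. A total of 34 groups of 4 libraries were examined, and chance passes about 1 in 20. With TMM, the log2 fold change was 0.45 for Speer4b without replicate 4 (adjusted p = 0.00357 by edgeR) and 1.25 for Speer4e without replicate 1 (adjusted p = 5.50e-05 by edgeR), both still called. Speer4b was not called per spermatid marker counts, at 0.05 with all libraries kept.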

How the results depend on the processing

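Calls depended on the scaling. Scaling to round spermatid markers gave 1213 genes higher and 14021 lower, against 5744 and 6008 with TMM; 3 members higher and 1 lower; 14 word-sharing gene models higher and 4 lower; and 0 other Speer genes higher and 1 lower. Log2 fold changes under it were -0.56 for Speer2, 0.30 for Speer3, 0.046 for Speer4b, 0.25 for Speer4c, -0.11 for Speer4f, -0.47 for Speer1, -0.093 for Speer4f2, -0.060 for Speer9-ps1, -0.050 for Psmd10, -0.057 for Zfp819 and -0.43 for 4933402N22Rik, and the summed level had a ratio of 0.901. Library totals, which put the median of all tested genes at -0.15, gave 1 member lower, 1 other Speer gene higher, -0.21 for Speer2, 0.23 for Speer4f, -0.12 for Speer1, -0.080 for 4933402N22Rik and a summed ratio of 1.15. The cause of these shifts beyond the construction of each scale was not tested.

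DESeq2, relative log expression factors, both other filters and leaving out any library gave 7 members higher and 0 lower. Without each library in turn, Speer2 ranged over -0.14 to 0.0096, Speer1 over -0.040 to 0.072, other Speer genes called higher over 2 to 4, genes higher over 5017 to 5549 and genes lower over 5367 to 5975. Same-numbered libraries deviated together with r of 0.0020 to 0.0798, against -0.0657 to 0.0406 for libraries of unlike number. Of the 8 libraries, 5 correlated best with their own number. The main test used no pairs because the labels do not say that equal numbers mark them, and whether they do was not tested. The replicate block gave 5915 genes higher and 6203 lower, with 7 members higher and 0 lower. Members other than Speer2 had 42 to 289 counts per library, which limits how precisely each copy is measured.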
